A study of Mus musculus with 4 samples.

Results

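The genes described here drive or restrain the passage of a cell from G1 into S phase. They are the D-type cyclins Ccnd1, Ccnd2 and Ccnd3, the E-type cyclins Ccne1 and Ccne2, the kinases Cdk4 and Cdk6, and the inhibitors Cdkn1b, Cdkn2a and Cdkn2b. They were taken by gene symbol from the deposited table, which held all 10 among its 22063 genes. mRNA was sequenced from ID8, a mouse ovarian cancer cell line, with a control shRNA (shCtrl, genotype WT, 2 libraries) or with knockdown of USP9X, a deubiquitinase, by shRNA (shUSP9X, 2 libraries). USP9X knockdown was studied for its part in TGF-β signaling and chemoresistance. The labels give no drug, TGF-β1 or hypoxia treatment for these cells. They also do not say which shRNA sequence the shUSP9X cells carried, or whether the 2 libraries of a group came from separate cultures. The p-values thus measure the spread between these libraries, which may be technical. The estimated counts, which were not normalised, summed to 17232006 and 15611363 in shCtrl and to 19978889 and 17021261 in shUSP9X.

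Usp9x itself, on chromosome X, had 298 and 282 CPM (counts scaled to library size with edgeR's TMM factors) in the shCtrl libraries and 19.7 and 20.5 CPM in the shUSP9X libraries. It was thus 14.4-fold lower in shUSP9X, a log2 fold change of -3.85, with no overlap of the groups (edgeR adjusted p = 4.7e-26, from a quasi-likelihood fit across all 11448 genes tested). In a second fit, with an offset that levels each library's trend on the GC content and length of transcripts, its log2 fold change was -2.34. Of 9 markers of ovarian surface epithelium and mesothelium, the tissue from which ID8 derives, 8 were abundant enough to test. Krt19 had the most counts of them, between 703 and 786 CPM over the 4 libraries. These markers moved both ways, as did all genes tested, of which 33.7% were higher and 33.6% lower at an adjusted p under 0.05 (edgeR). Krt8, Upk1b, Krt18 and Krt19 were higher in shUSP9X, with log2 fold changes of 0.92, 0.68, 0.64 and 0.12, and Msln, Wt1 and Lrrn4 were lower, with -0.47, -0.52 and -1.64. Krt7 had at most 3 counts in a library.

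D-type cyclins are made in response to growth signals and activate Cdk4 and Cdk6. These kinases phosphorylate the retinoblastoma protein, which then lets E2F factors turn on S-phase genes, among them the E-type cyclins, the activators of Cdk2. The CIP/KIP inhibitor p27, from Cdkn1b, restrains cyclin E-Cdk2, and the INK4 inhibitors p15, from Cdkn2b, and p16, from Cdkn2a, bind Cdk4 and Cdk6. Cdkn2a also encodes p19Arf, which stabilises p53 and is read from a start further upstream.

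The starts of Cdkn2a and Cdkn2b are shown because these genes were nearly without counts. That of Ccne1 is shown because its change was the largest among those of the 10 genes that were tested. Each sequence spans 250 bases before the start of the gene to 50 after it, from RefSeq on GRCm38.p6, on the minus strand and written 5′ to 3′. RefSeq promoters were at hand for 7 of the 10 genes, 9 promoters in all. Capitals mark matches to an E2F-type motif, searched on both strands as TTTCCCGC, TTTCGCGC, TTTGCCGC and TTTGGCGC.
Ccne1 (chr7:38107441-38107740): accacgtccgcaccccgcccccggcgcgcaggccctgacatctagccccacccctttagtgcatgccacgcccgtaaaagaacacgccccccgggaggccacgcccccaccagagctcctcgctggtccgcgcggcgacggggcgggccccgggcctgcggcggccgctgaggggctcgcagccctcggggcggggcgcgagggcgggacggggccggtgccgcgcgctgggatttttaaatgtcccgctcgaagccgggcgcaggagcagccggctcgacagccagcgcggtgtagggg
Cdkn2a, start of the p19Arf transcript (chr4:89294570-89294869): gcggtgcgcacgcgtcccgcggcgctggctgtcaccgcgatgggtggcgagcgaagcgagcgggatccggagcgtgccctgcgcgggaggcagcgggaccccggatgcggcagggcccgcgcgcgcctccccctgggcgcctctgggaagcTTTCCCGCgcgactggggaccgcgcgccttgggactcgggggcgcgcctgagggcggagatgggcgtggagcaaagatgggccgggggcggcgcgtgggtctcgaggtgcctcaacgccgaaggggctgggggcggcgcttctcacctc
Cdkn2a, start of the p16 transcript (chr4:89282143-89282442): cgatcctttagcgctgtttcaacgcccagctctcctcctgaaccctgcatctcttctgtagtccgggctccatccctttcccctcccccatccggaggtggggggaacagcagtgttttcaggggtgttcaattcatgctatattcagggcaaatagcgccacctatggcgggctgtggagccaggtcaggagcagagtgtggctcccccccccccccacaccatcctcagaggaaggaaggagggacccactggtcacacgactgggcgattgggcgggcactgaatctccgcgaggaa
Cdkn2b (chr4:89310983-89311282): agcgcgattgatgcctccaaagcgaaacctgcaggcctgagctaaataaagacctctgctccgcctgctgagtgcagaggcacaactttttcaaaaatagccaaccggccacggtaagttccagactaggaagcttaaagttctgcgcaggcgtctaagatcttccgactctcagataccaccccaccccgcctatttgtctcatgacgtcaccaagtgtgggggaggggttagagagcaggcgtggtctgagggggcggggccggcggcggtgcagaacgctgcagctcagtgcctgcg
The motif was found in 1 of the 9 promoters, that of the p19Arf start, where it begins 99 bases before the start. Of 32851 mouse promoters of the same length, 2.26% hold it. The Ccne1 promoter has a GC content of 76.0%, and the p16 start 60.3%.

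Of the 10 genes, 8 passed the filter on low counts, each with at least 204 counts in every library. At an adjusted p under 0.05 (edgeR), Ccnd1, Ccnd3, Ccne1 and Cdk4 rose in shUSP9X cells and Ccnd2, Ccne2, Cdk6 and Cdkn1b fell. Of the falls, only that of Cdkn1b was also called with the offset for GC content and length, where 6 genes were higher and 1 lower. The 8 of 8 without the offset stand beside 67.3% of all genes tested, of which 33.6% were lower and 33.7% higher. The study's methods set limits on the p-value (0.05) and the fold change (1.5), and do not say whether p was adjusted. Past both limits, with the p-value taken unadjusted, Ccnd3 and Ccne1 were higher and Ccne2 and Cdkn1b lower, 4 of the 8, beside 29.5% of all genes tested (10.8% higher, 18.7% lower). The median log2 fold change of the 8 genes was 0.07, and that of all genes tested 0.00 to 2 decimals, with a median absolute change of 0.38. Under other scalings the median log2 fold change of all genes tested shifted by at most 0.033. In a population of cells, fewer cells in a phase and less mRNA per cell cannot be told apart.

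**Figure D1:**
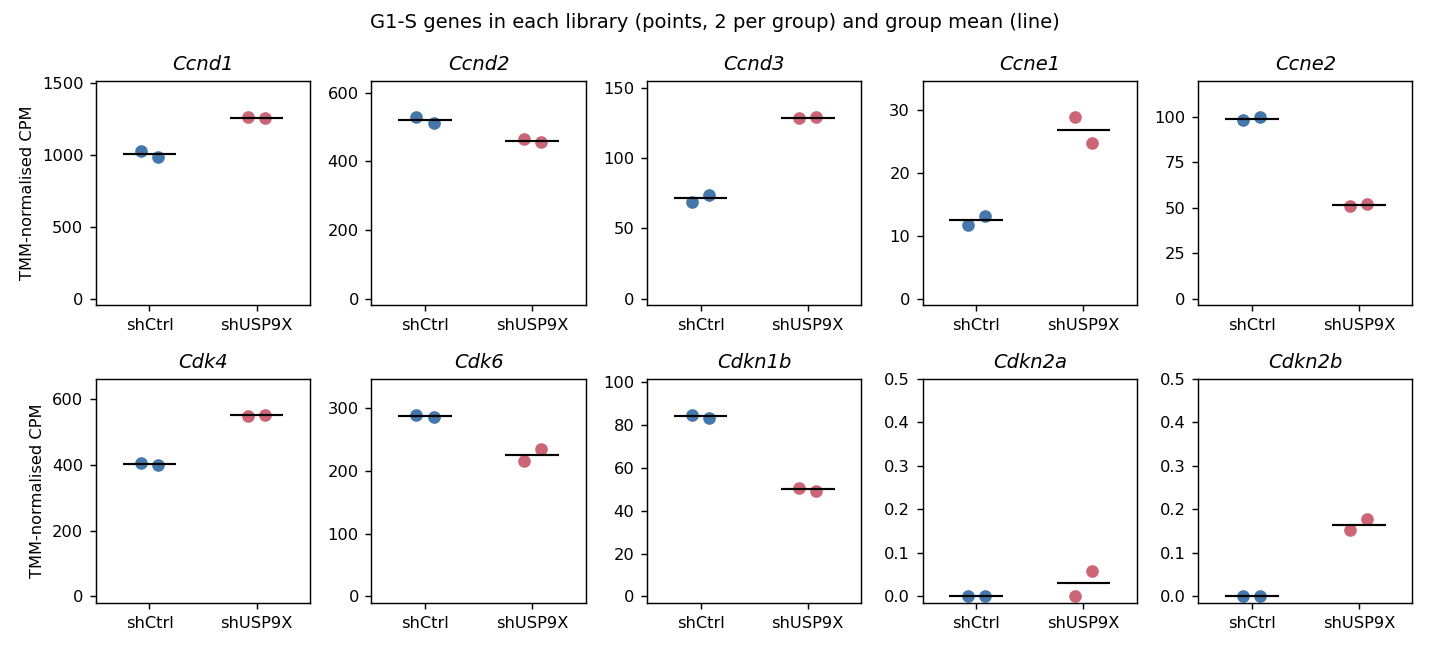
TMM-normalised CPM of the 10 genes (vertical axis, linear, from 0) in the 2 shCtrl libraries (blue) and the 2 shUSP9X libraries (red), with the group mean as a line. The groups are apart for the 8 genes with counts, and Cdkn2a and Cdkn2b lie below 0.2 CPM in every library.

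Ccnd1, which encodes cyclin D1 (ENSMUSG00000070348, chromosome 7, 144929931 to 144939925, minus strand, GRCm38), had 1027 and 982 CPM in shCtrl and 1259.7 and 1252 CPM in shUSP9X. Both shUSP9X libraries lay above both shCtrl libraries, and the rise was 1.25-fold (log2 fold change 0.32, standard error 0.03, edgeR adjusted p = 1.2e-09). Ccnd3, for cyclin D3 (ENSMUSG00000034165, chromosome 17, 47505051 to 47599691, plus strand), had 69.1 and 73.7 CPM in shCtrl and 128.5 and 129.2 CPM in shUSP9X. This was the largest rise of a D-type cyclin, 1.81-fold (log2 fold change 0.85, standard error 0.05, edgeR adjusted p = 1.2e-13), and the groups did not overlap. Ccnd2, for cyclin D2 (ENSMUSG00000000184, chromosome 6, 127125162 to 127152193, minus strand), went the other way by a small amount. It had 529 and 513 CPM in shCtrl and 466 and 456 CPM in shUSP9X, 1.13-fold lower (log2 fold change -0.18, standard error 0.04, edgeR adjusted p = 9e-05). Of all genes tested, 38.2% had a lower fold change than Ccnd2 and 94.8% a lower one than Ccnd3. The fall of Ccnd2 depended on the unit and on the offset, with which it was higher (0.13). In FPKM, the deposited value scaled for transcript length and library size, Ccnd2 was at 88.0 and 85.6 in shCtrl and 88.6 and 87.2 in shUSP9X, so that the groups overlapped (log2 fold change 0.02, adjusted p = 0.72, limma on log2(FPKM + 1)). The transcript length that turns the Ccnd2 counts into these FPKM values was 6.05 and 6.06 kb in shCtrl but 5.20 and 5.18 kb in shUSP9X. For Ccnd1 it was 3.74 kb in each of the 4 libraries.

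The E-type cyclins moved in opposite directions in CPM, but with the offset for GC content and length Ccne2 was not called (log2 fold change 0.09). Ccne1, for cyclin E1 (ENSMUSG00000002068, chromosome 7, 38097984 to 38107534, minus strand), was covered by the fewest reads of the tested genes, with 204 and 208 estimated counts in the control libraries against 569 and 416 after knockdown. In CPM it was at 11.8 and 13.2 in shCtrl and at 28.8 and 24.7 in shUSP9X. It rose 2.15-fold (log2 fold change 1.11, standard error 0.12, edgeR adjusted p = 3.4e-09). With each library left out in turn its log2 fold change lay between 0.99 and 1.22. Ccne2, for cyclin E2 (ENSMUSG00000028212, chromosome 4, 11191351 to 11204779, plus strand), had 98.0 and 99.7 CPM in shCtrl and 50.9 and 52.0 CPM in shUSP9X, 1.92-fold lower (log2 fold change -0.94, standard error 0.06, edgeR adjusted p = 8.6e-14). Neither gene had overlapping groups. The FPKM ratio of Ccne1 to Ccne2 was 0.175 and 0.193 in shCtrl and 0.825 and 0.768 in shUSP9X. Ccne1 thus gave 14.9 and 16.1% of the summed E-type cyclin FPKM in shCtrl and 45.2 and 43.4% in shUSP9X. In FPKM the sum fell from 40.5 ± 1.10 to 31.3 ± 0.275 (mean ± SD, n = 2). These shares and sums are without the offset, with which neither gene was lower (log2 fold change 0.88 for Ccne1 and 0.09 for Ccne2).

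The kinases that the D-type cyclins activate parted in CPM, whereas with the offset both were higher (log2 fold change 0.22 for Cdk4 and 0.76 for Cdk6). Cdk4 (ENSMUSG00000006728, chromosome 10, 127063534 to 127067920, plus strand) had 405 and 398 CPM in shCtrl and 548 and 551 CPM in shUSP9X, a 1.37-fold rise (log2 fold change 0.45, standard error 0.03, edgeR adjusted p = 9.9e-12). Cdk6 (ENSMUSG00000040274, chromosome 5, 3341485 to 3531008, plus strand) had 289 and 286 CPM in shCtrl and 216 and 236 CPM in shUSP9X, 1.27-fold lower (log2 fold change -0.35, standard error 0.04, edgeR adjusted p = 6.4e-08). In CPM the groups were apart for both kinases. In FPKM, Cdk6 was at 38.7 and 56.6 in the shCtrl libraries, on either side of the 47.5 and 44.5 of shUSP9X, and it was not called (log2 fold change -0.02, adjusted p = 0.9, limma on log2(FPKM + 1)). The length behind the Cdk6 values was 7.52 kb in shCtrl replicate 1 and 5.11, 4.49 and 5.24 kb in the other libraries.

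Among the inhibitors, Cdkn1b, for p27 (ENSMUSG00000003031, chromosome 6, 134920401 to 134925513, plus strand), had 84.7 and 83.4 CPM in shCtrl and 50.6 and 49.3 CPM in shUSP9X. It was 1.68-fold lower with no overlap of the groups (log2 fold change -0.75, standard error 0.06, edgeR adjusted p = 2.1e-11). With the offset for GC content and length the fall was smaller (-0.25, edgeR adjusted p = 0.00034). Cdkn2a (ENSMUSG00000044303, chromosome 4, 89274471 to 89294653, minus strand) had no count in the shCtrl libraries and 0 and 1 in the shUSP9X libraries. Cdkn2b (ENSMUSG00000073802, chromosome 4, 89306299 to 89311039, minus strand) likewise had no count in the shCtrl libraries, and 3 in each shUSP9X library. Both genes were at or under the floor of 3 counts per library in both groups, so no fold change is given. Neither passed the filter for the main fit. Fits without the filter and with DESeq2 took in all 10 genes, and the calls stayed at 4 lower and 4 higher. A count of 0 allows up to 0.173 and 0.190 CPM in the shCtrl libraries, and this limit covers counting error only. The gene count of Cdkn2a does not separate the p16 transcript from the p19Arf transcript shown above. Mtap, the enzyme gene next to this locus, had 484 and 482 CPM in shCtrl and 534 and 536 CPM in shUSP9X (log2 fold change 0.15, edgeR adjusted p = 0.00046), while Dmrta1, on the other side, had 0 counts in all 4 libraries.

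Levels of different genes can be compared only per length, and the order depended on the length used. In deposited FPKM, the order of the means in shCtrl was Ccnd1 (271), Cdk4 (222), Ccnd2 (86.8), Cdk6 (47.6), Ccnd3 (39.4), Ccne2 (34.2), Cdkn1b (29.4) and Ccne1 (6.29 FPKM). Neighbours in this order did not overlap, except Cdk6 and Ccnd3. In shUSP9X the FPKM order was Ccnd1 (332), Cdk4 (297), Ccnd2 (87.9), Ccnd3 (67.4), Cdk6 (46.0), Cdkn1b (19.0), Ccne2 (17.4) and Ccne1 (13.9 FPKM), with no overlap between neighbours. The places of Cdk6 and Cdkn1b did not hold in CPM per kilobase of the annotated transcript. On that scale Ccnd3 (32.7 and 34.9) and Ccne2 (32.6 and 33.2) overlapped in shCtrl and both lay above Cdk6 (25.1 and 24.8). In shUSP9X Cdkn1b (11.1 and 10.8) lay below both Ccne2 (16.9 and 17.3) and Ccne1 (14.4 and 12.3) on the same scale. Among the D-type cyclins Ccnd1 had 68.5 and 67.9% of the summed FPKM in shCtrl and 68.2 and 68.1% in shUSP9X, shares that overlapped. In CPM per kilobase its shares were 70.3 and 69.4% in shCtrl and 71.5 and 71.5% in shUSP9X, which did not overlap. The shares that follow are again in FPKM. The share of Ccnd2 went from 21.8 and 21.9% to 18.1 and 17.9%, and that of Ccnd3 from 9.65 and 10.2% to 13.7 and 14.0%. The sum of the D-type cyclins was 397 ± 8.18 FPKM in shCtrl and 488 ± 1.41 FPKM in shUSP9X (mean ± SD, n = 2).

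**Figure D2:**
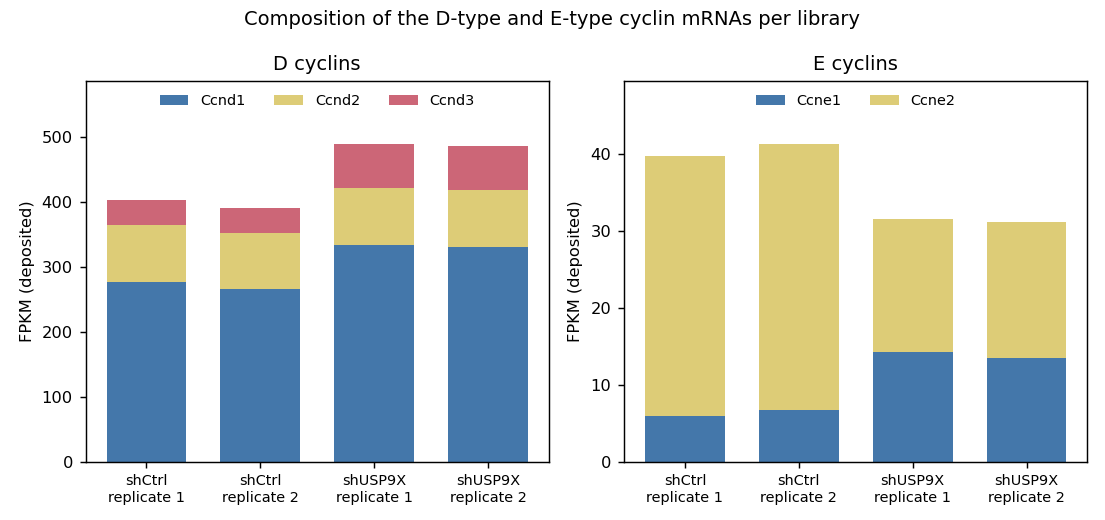
Deposited FPKM of the D-type cyclins (left) and the E-type cyclins (right), stacked for each of the 4 libraries. Ccne1 fills 14.9 and 16.1% of the E-type bar in shCtrl and 45.2 and 43.4% in shUSP9X, and Ccnd1 about the same share of each D-type bar.

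The direction of the 8 genes followed the GC content of their transcripts. The 4 that fell lay between 36.3% (Ccne2) and 47.1% GC (Ccnd2), and the 4 that rose between 50.9% (Ccnd1) and 58.4% (Ccnd3). Over all genes tested, which are not independent replicates, fold changes rose with GC content (Spearman's rho = 0.447) and fell with transcript length (rho = -0.331). The offset levels both trends, whatever gave rise to them. With it, 6 of the 8 genes were higher and 1 lower at an adjusted p under 0.05 (edgeR), beside 63.4% of all genes tested (36.1% higher, 27.4% lower). Ccne1 (log2 fold change 0.88), Ccnd3 (0.60), Ccnd1 (0.24) and Cdk4 (0.22) stayed higher and Cdkn1b stayed lower (-0.25, edgeR adjusted p = 0.00034). Ccne2, the largest fall without the offset, was no longer called (0.09, standard error 0.06, edgeR adjusted p = 0.17). Cdk6 (0.76, edgeR adjusted p = 1.9e-17) and Ccnd2 (0.13, edgeR adjusted p = 0.00076) turned higher. For Cdk6 the offset took the annotated transcript of 11525 bases, longer than the 4.49 to 7.52 kb behind its FPKM values. The part of this length in its change was not tested.

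**Figure D3:**
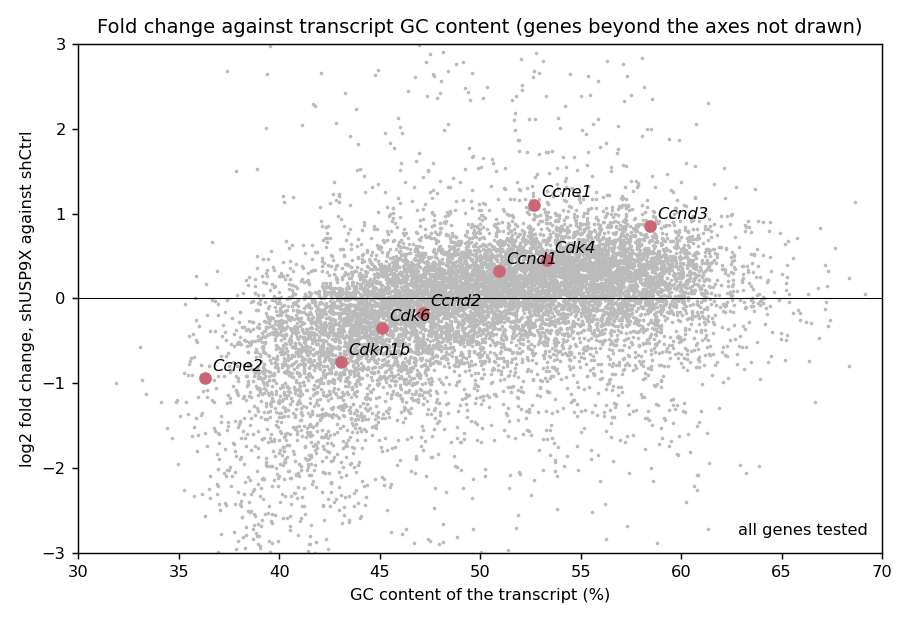
Log2 fold change of shUSP9X against shCtrl (vertical axis) by GC content of the transcript in percent (horizontal axis), for the genes tested (grey, those beyond the axes not drawn) and the 8 tested G1-S genes (red, named). The 4 genes that fell lie between 36.3 and 47.1% GC and the 4 that rose between 50.9 and 58.4%.

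**Figure D4:**
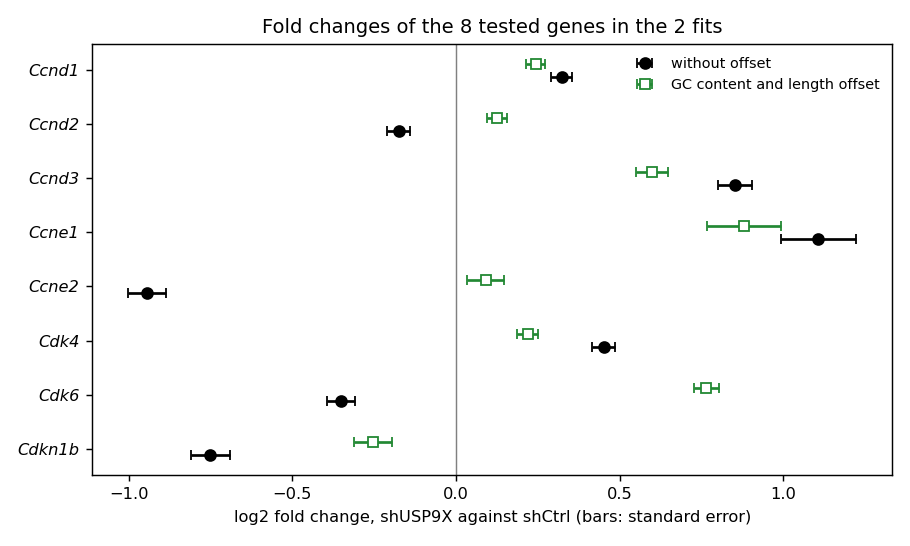
Log2 fold change of the 8 tested genes (horizontal axis) with its standard error, from the fit without an offset (filled circles) and with the offset for GC and length (open squares). Ccnd2, Ccne2 and Cdk6 change side of 0, at -0.18, -0.94 and -0.35 without the offset and 0.13, 0.09 and 0.76 with it.

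Some of these genes share exons with a gene on the opposite strand, and the counting is not stated to use strand, so that reads there cannot be told apart. Ccne2 shares 609 exon bases with Ints8, a subunit gene of the Integrator complex, which was itself lower (log2 fold change -0.79, edgeR adjusted p = 5.8e-13). Ccnd3 shares 361 with Bysl, a ribosome assembly gene, which was higher (0.98, edgeR adjusted p = 3.6e-15). Cdk4 shares 641 with Tspan31 (0.06, edgeR adjusted p = 0.28) and Ccnd1 shares 1100 with LTO1 (0.12, edgeR adjusted p = 0.39). Ccnd2 and Cdk6 share up to 372 and 368 exon bases with antisense genes that were not matched in the table. The counts of Ccnd1, Ccnd3, Ccne2 and Cdk4 were not whole numbers, except that of Ccne2 in shUSP9X replicate 2, and the part of shared reads in their changes was not tested.

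Around these genes, 82 genes of hand-written lists of the G1-S pathway were tested. At an adjusted p under 0.05 (edgeR), 26 were lower and 37 higher, with a median log2 fold change of 0.07. Of all genes tested 33.6% were lower and 33.7% higher, and with the offset 27.4 and 36.1%, and the counts of each list stand against these shares. In what follows, the gene with the most counts in a list is the one with the highest mean log2 CPM, which is not scaled for length.

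Of the other CDK inhibitors, 3 of 4 were tested, with a median log2 fold change of -0.03. Cdkn1a, for p21, a p53 target with the most counts among them, rose from 77.8 and 80.8 CPM to 118 and 115 CPM (log2 fold change 0.55, edgeR adjusted p = 5.5e-10, and 0.31 with the offset). Cdkn2c, for the INK4 protein p18, fell from 69.8 and 70.7 CPM to 56.4 and 55.8 CPM (-0.32, edgeR adjusted p = 4e-05, and -0.55 with the offset). Cdkn2d, for p19Ink4d, was not called without the offset (-0.03, edgeR adjusted p = 0.82) and was lower with it (-0.33, edgeR adjusted p = 0.0068). The list then had 2 genes lower and 1 higher (median -0.33). Cdkn1c had 0 counts in all libraries. The Rb family, the brake that the cyclin D kinases release, fell in all of its 3 members. Rb1 went from 26.5 and 23.8 CPM to 9.61 and 8.01 CPM (log2 fold change -1.51, standard error 0.12, edgeR adjusted p = 3.5e-11), Rbl2 fell by 0.57 and Rbl1, with the most counts of the 3, by 0.33 on the log2 scale. Under the offset Rb1 (-0.82) and Rbl2 (-0.37) stayed lower and Rbl1 turned higher (0.29, edgeR adjusted p = 4.9e-05).

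Among 10 E2F and DP factors, 5 rose and 1 fell (median 0.25), and with the offset 5 were higher and 1 lower (median 0.20). E2f2 (log2 fold change 0.67) and E2f8 (0.63) had the largest rises. Tfdp1, with the most counts, also rose (0.29), and its relative Tfdp2 fell (-0.67, but -0.13 with the offset, edgeR adjusted p = 0.049). E2f1 was not called (0.07, edgeR adjusted p = 0.37). Of 14 S-phase genes that E2F activates, 11 rose and 2 fell (median 0.33), beside 33.7% and 33.6% of all genes tested. With the offset 11 were higher and 1 lower (median 0.34), beside 36.1% and 27.4%. The DNA helicase loader Cdt1 went from 85.6 and 98.6 CPM to 147 and 147 CPM (0.68, edgeR adjusted p = 3.3e-11), and the transcription factor Mybl2 from 78.4 and 78.4 CPM to 141 and 139 CPM (0.84, edgeR adjusted p = 4.9e-14). Rrm1, for the large subunit of ribonucleotide reductase and with the most counts of these genes, rose too (0.19, and 0.52 with the offset, where Cdt1 was at 0.43). Pola1, for the catalytic subunit of DNA polymerase α, went against most of the others, from 113 and 109.7 CPM to 31.5 and 30.4 CPM (-1.84, edgeR adjusted p = 2.9e-19, and -1.11 with the offset).

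Of 8 tested partner kinases and activators, 4 rose and 1 fell (median 0.10), and with the offset 7 were higher and 0 lower (median 0.36). Cdc25a, the phosphatase that activates Cdk2, rose from 45.5 and 44.3 CPM to 74.5 and 78.2 CPM (log2 fold change 0.77, edgeR adjusted p = 4.5e-11, and 0.65 with the offset). Cdc37, the Hsp90 co-chaperone of Cdk4, also rose (0.48, and 0.71 with the offset). Ccnh, for the cyclin of the Cdk-activating kinase, fell (-0.28, edgeR adjusted p = 0.0043) and with the offset was higher (0.42). Ccna2, for cyclin A2 and with the most counts, was called only with the offset (0.04, edgeR adjusted p = 0.3, and 0.14 with it, edgeR adjusted p = 0.00038). Of 13 genes of the ubiquitin ligases that turn over G1 cyclins and p27, 6 rose and 4 fell (median 0.06). These counts were the same with the offset (median 0.12). The cullins Cul4b (-1.11), Cul3 (-1.10) and Cul1 (-0.68) had the largest changes without the offset, and Ddb1, the CUL4 adaptor and with the most counts, rose (0.34). With the offset the cullins were at -0.55, -0.13 and -0.42. Skp2, for the F-box protein that binds p27, had 46.9 and 52.6 CPM in shCtrl and 75.5 and 78.6 CPM in shUSP9X (0.63, edgeR adjusted p = 3.2e-09, and 1.12 with the offset). Fbxw7, for the F-box protein that binds cyclin E, had 24.5 and 26.0 CPM in shCtrl and 16.9 and 16.0 CPM in shUSP9X (-0.61, edgeR adjusted p = 1.1e-05, and -0.42 with the offset). Skp2 and Fbxw7 were named after their values had been seen.

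**Figure D5:**
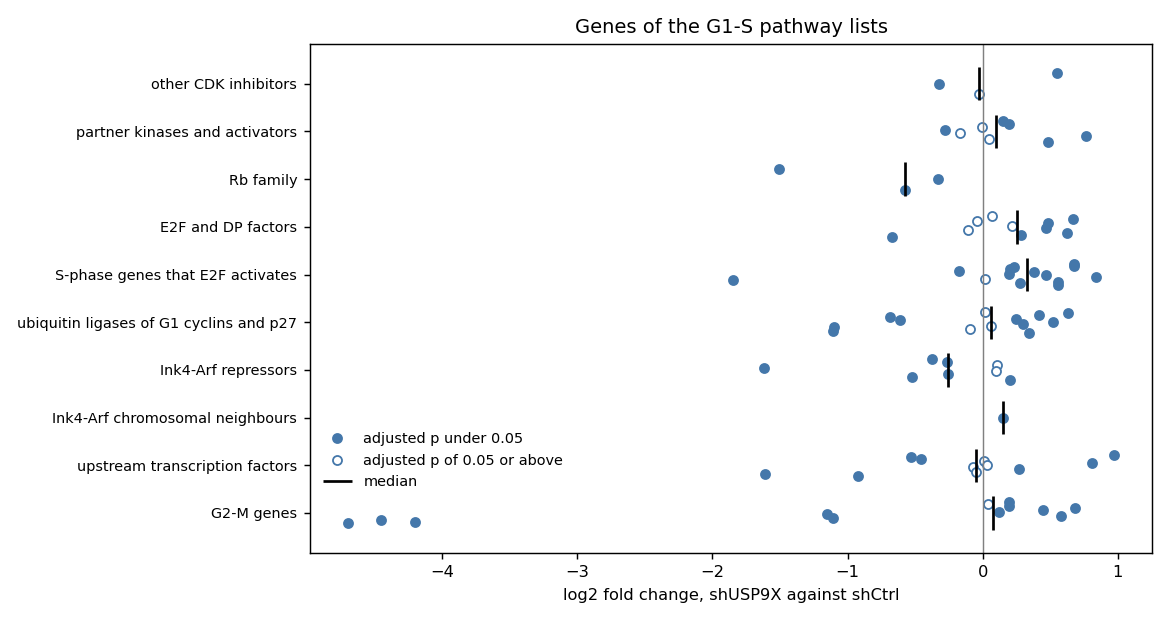
Log2 fold change of shUSP9X against shCtrl (horizontal axis) for the tested genes of 10 G1-S pathway lists (rows), filled where the adjusted p was under 0.05, with each list's median as a line. Without the offset drawn here, the Rb family lies below 0 in all 3 genes, beside 33.6% of all genes tested called lower. Rbl1 was at 0.29 with the offset. Of the 14 S-phase genes 11 rose, beside 33.7% of all genes tested.

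Of 8 tested Polycomb genes that repress the Ink4-Arf locus, 5 fell and 1 rose (median -0.26), beside 33.6% and 33.7% of all genes tested. With the offset 2 were lower and 3 higher. Suz12 went from 195.4 and 195.7 CPM to 63.9 and 63.7 CPM (log2 fold change -1.62, edgeR adjusted p = 3e-20, and -1.001 with the offset), and Phc1 (-0.52) and Bmi1 (-0.38) fell too, while Phc2, with the most counts, rose (0.20). The median with the offset was 0.00 to 2 decimals, and Bmi1 was then higher (0.28, edgeR adjusted p = 8.2e-05). Among 11 tested transcription factors upstream of the G1 cyclins and inhibitors, 4 fell and 3 rose (median -0.05). These became 4 lower and 4 higher with the offset (median -0.09). Myc, an activator of Ccnd2 and Cdk4, rose from 109 and 114 CPM to 219.8 and 218 CPM (0.97, edgeR adjusted p = 2.8e-16, and 0.76 with the offset). The study lists CCND1 among the targets of HIF-2α, which Epas1 encodes. By qRT-PCR in hypoxia, it reports that the HIF-regulated genes lowered by USP9X loss leaned towards HIF-2α targets. It ascribes this mainly to stabilisation of the HIF-2α protein by USP9X. The labels give no hypoxia treatment here, and Ccnd1 mRNA was higher in shUSP9X (log2 fold change 0.32). Epas1 had 24.0 and 25.7 CPM in shCtrl and 7.69 and 8.61 CPM in shUSP9X (-1.61, edgeR adjusted p = 7.3e-12, and -1.63 with the offset). Hif1a, with the most counts of this list, fell as well (-0.93, and -0.24 with the offset). Of 12 genes of G2 and mitosis, 6 rose and 5 fell (median 0.08). Cenpf (-4.70), Mki67 (-4.45) and Cenpe (-4.20) fell furthest without the offset, and Top2a, with the most counts, fell by 1.11 on the log2 scale. With the offset 7 of the 12 were lower and 5 higher, and these 4 genes were at -3.47 (Cenpf), -3.50 (Mki67), -3.38 (Cenpe) and -0.57 (Top2a).

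Over the 4 libraries, the genes whose log2 CPM lay nearest to that of Ccne1, after centring on the mean, were Isg20, Mrm3 and Pemt, at Euclidean distances of 0.0867, 0.0868 and 0.0958, and 51 genes lay within 0.2. Their log2 fold changes were 1.04, 1.08 and 1.17.

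Markers of other cells also moved between the groups. The 11 leukocyte markers summed to 4.32 and 4.36 CPM in shCtrl and to 15.1 and 15.1 CPM in shUSP9X, and 5 could be tested. Cd68 had the most counts, at 4.27, 4.30, 5.97 and 5.04 CPM, and was not called (edgeR adjusted p = 0.13). Itgam, at 0 in both shCtrl libraries, had 72 and 75 counts with the knockdown. Adgre1 (58 and 59), Ptprc (29 and 18) and Csf1r (17 and 13) were also at 0 in both shCtrl libraries. Itgam, Adgre1, Ptprc and Csf1r passed the count filter only through shUSP9X, so a rise was the only call possible for them. Cd3e and C1qa had 0 in every library and Lyz2 had at most 2. The 7 fibroblast markers summed to 252 and 259 CPM in shCtrl and to 148 and 145 CPM in shUSP9X, led by Dcn. All 3 that could be tested fell, beside 33.6% of all genes tested, with log2 fold changes of -0.46 for Dcn, -1.72 for Col1a1 and -2.87 for Pdgfra, while Lum and Thy1 were at 0. The 5 endothelial markers summed to 10.7 and 11.7 CPM and to 6.88 and 7.18 CPM, led by Tek, with 1 of the 2 tested lower and Cdh5 and Kdr at 0. Their part in the changes of the G1-S genes was not tested.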

How the data were processed

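RNA-seq of 4 ID8 libraries was used. According to the methods of the study, reads were mapped to GRCm38, and StringTie and DESeq2 were used. The submitters' processing notes name fastp 0.18.0, Bowtie2 2.2.8, HISAT2, StringTie 1.3.1 and RSEM without saying what each did. The annotation release is not given in the sources used here. The authors deposited estimated counts, 1 value for each gene in each library and not normalised, of which between 6.395 and 6.69% were not whole. The authors also deposited FPKM values, scaled for transcript length and library size. The length that links counts to FPKM differs between libraries for some genes, so fold changes in the 2 units can differ.

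Rounded counts that passed filterByExpr (11448 genes) were scaled by TMM. edgeR 4.0.16 in R 4.3.3 then fitted quasi-likelihood models without a replicate block, and p-values were adjusted by Benjamini and Hochberg's procedure. The design had been written for counts, and estimated counts took the same test. Since 2 libraries against 2 allow no exact permutation p below 0.333, no permutation test was run. Coordinates, GC content and length (longest coding transcript) come from GENCODE M21 on GRCm38, known for 99.8% of the genes tested. The alternatives were DESeq2 1.42.0, other scalings and filters, limma 3.58.1 on FPKM values averaging 1 or more (log2 with a pseudocount of 1 or of 0.1), a replicate block, the GC content and length offset (loess, span 0.3) with and without the block, and each library left out. The procedures were tested on simulated data. Members and lists were chosen with earlier results of these data known. The text names every member, Usp9x, and the 3 largest called changes and the most abundant gene of each pathway list. It also names the 3 genes nearest to the most changed of the tested members. Other genes named were chosen after their values were seen. Of 89 pathway symbols listed, 87 were in the table. Skp1a and Cdk3 were not matched, whereas Skp1, in the same list as Skp1a, was matched and tested.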

Additional observations from a re-analysis of the deposited data

How the results depend on the processing

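Of the 8 tested genes 4 were lower and 4 higher. The numbers lower were 1 with the GC content and length offset, 1 with that offset and the replicate block, and 2 on log2(FPKM + 1) and on log2(FPKM + 0.1). At an unadjusted p under 0.05 and a fold above 1.5 they were 2 lower and 2 higher, and of the 82 pathway genes 15 lower and 10 higher. With the offset, and with the offset and block, Ccnd2 (0.13 and 0.13), Ccne2 (0.090 and 0.091) and Cdk6 (0.76 and 0.76) changed sign, and Ccnd2 also did on log2(FPKM + 1) and log2(FPKM + 0.1) (0.018 and 0.018). The cause was not tested. Ccnd1, Ccnd3, Ccne1, Cdk4 and Cdkn1b held their direction, with adjusted p-values below 0.05, in all 15 alternative fits, as did Usp9x (-3.91 to -2.34). With each library left out, 4 genes were lower and 4 higher each time, where a group left with 1 library is assumed to vary like the other. In counts per kilobase in place of FPKM, Ccnd1 made up 69.8% of the D-type cyclins in shCtrl and 71.5% in shUSP9X, and Cdk4 made up 88.7 and 93.2% of Cdk4 and Cdk6 together. The labels do not say whether same-numbered libraries were paired. Their deviations had a correlation of -0.04, but 2 pairs are too few to decide on pairing. The replicate block left 4 genes lower and 4 higher. Depth limits Cdkn2a and Cdkn2b, which lie at the floor.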
